A study of Arabidopsis thaliana with 12 samples.

Results

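The 10 genes described here protect photosystem II from excess light or help to repair it in Arabidopsis thaliana. They are FTSH1, FTSH2, FTSH5, FTSH8, DEG1, PSBS, STN7, STN8, VDE and ZEP, chosen by locus for what their products are known to do. The rule used no measured value, but earlier results of these data were known when the genes were chosen. All 10 were listed among 18273 genes with a translated open reading frame (ORF) in shoot or root, and each was listed in both tissues. Of the 18273 genes, 16191 were listed in shoot and 16757 in root, so listing in both was the usual case. The data are ribosome profiling of shoots and roots of wild-type (Col) seedlings aged 4 days, grown in liquid medium with sucrose under 16 hours of light and 8 hours of dark at 22°C and collected 3 hours after lights on. In ribosome profiling, the short stretches of RNA covered by ribosomes are sequenced, and these mark the ORFs under translation. Each tissue had 3 ribosome profiling samples, and 3 RNA-seq samples that were not analysed here, 12 samples in all. The ORF tables gave 1 whole-number count per ORF for shoot and 1 for root, read as ribosome footprints in the ORF. There was thus 1 value per tissue, with no replicate check and no p-value, and the 95% intervals below cover counting error only.

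Light damages the D1 protein of photosystem II, and plants replace it in a repair cycle. FTSH proteases, a hexamer of type A subunits (FTSH1 and FTSH5) and type B subunits (FTSH2 and FTSH8) in the thylakoid membrane, degrade damaged D1 together with serine proteases of the DEG family. The kinase STN8 phosphorylates core proteins of photosystem II, and STN7 phosphorylates its antenna in state transitions. PSBS senses the acidity of the thylakoid lumen and switches on the dissipation of absorbed light as heat. Violaxanthin de-epoxidase (VDE) makes zeaxanthin, which favours that dissipation, and zeaxanthin epoxidase (ZEP) turns it back. ZEP also makes precursors of the hormone abscisic acid.

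The tissue labels were checked against marker genes. All 8 shoot markers of stomatal lineage and leaf development (SPCH, MUTE, FAMA, TMM, AS1, FIL, YAB3 and TCP4) were listed in shoot, with a summed count of 10466, and 0 of 8 were listed in root. The 10 root markers were EXPA7, EXPA18, CASP1, PIN2, PLT1, PLT2, SHR, RHD6, RSL4 and SMB. Of these, 4 were listed in shoot with a summed count of 1614, or 0.00169% of the shoot sum. All 10 were listed in root with 77623, or 0.0685% of the root sum. SHR had 761 counts in shoot and 1224 in root, over ORFs of unlike length. Per codon its share in shoot was 1.07 times that in root (0.977 to 1.17), so SHR did not separate the tissues. The tables hold called ORFs only, so a gene that is not listed was not shown to be untranslated. Gene counts, taken as the largest ORF count of each gene, summed to 95481490 in shoot over 16191 genes and 113381941 in root over 16757 genes. In bulk tissue, fewer cells of a type and less RNA per cell cannot be told apart.

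Every one of the 10 genes had more counts per codon in shoot than in root. The counts of the 10 genes together made up 0.451% of the shoot sum and 0.0503% of the root sum. Their median level was 30.0 counts per codon in shoot and 8.57 in root, against medians over all listed genes of 3.67 in shoot and 4.79 in root. In shoot all 10 stood above the median of listed genes. In root 6 did so, namely PSBS, ZEP and the 4 FTSH genes, while DEG1, STN7, STN8 and VDE lay below it.

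The order of levels was nearly the same in both tissues. In shoot it ran PSBS, FTSH2, FTSH5, ZEP, FTSH8, FTSH1, DEG1, STN7, STN8 and VDE, and no neighbours in that order had overlapping intervals. In root FTSH1 (8.69 counts per codon, 8.48 to 8.91) stood before FTSH8 (8.45, 8.23 to 8.67), and these intervals overlapped, so that the 2 genes did not differ beyond counting error. The other neighbours in root had intervals that did not overlap. PSBS had 131 times the counts per codon of VDE in shoot and 61.8 times in root. The other 9 genes were spread the other way, as FTSH2, the highest of them, had 24.4 times the counts per codon of VDE in shoot and 52.0 times in root.

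**Figure D1:**
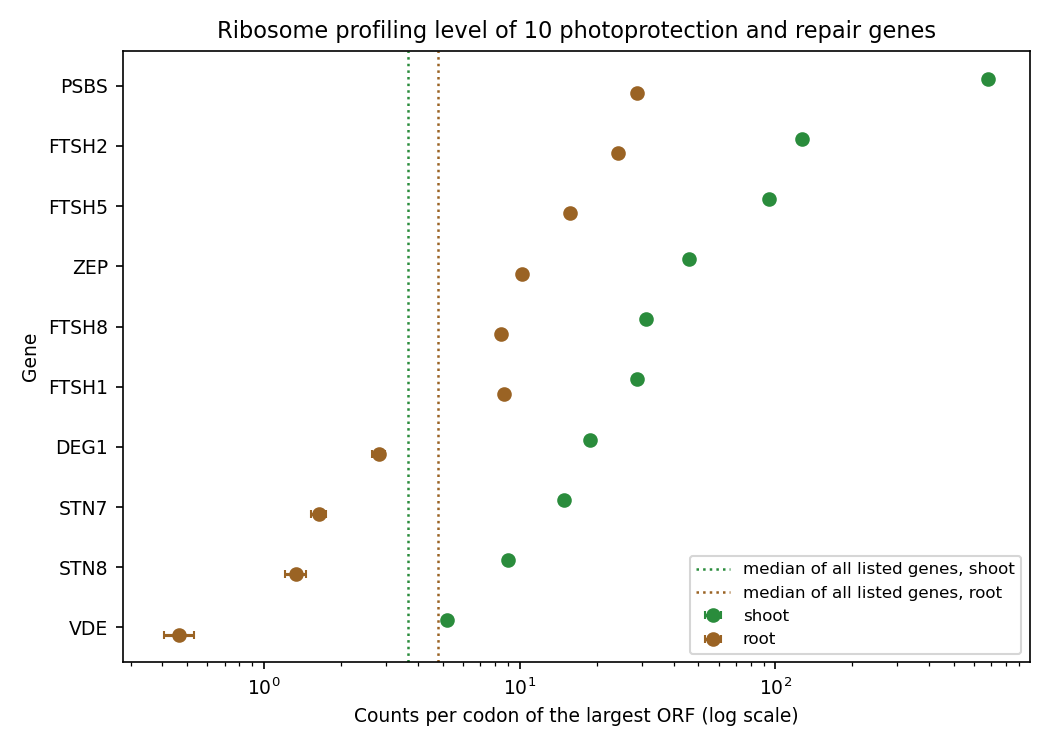
Counts per codon of the largest ORF of each of the 10 genes on a log axis, with shoot and root as points, Poisson 95% intervals as bars (most are smaller than the points) and the median of all listed genes in each tissue as dotted lines. All 10 shoot points lie to the right of the root points, and 4 root points lie left of the root median of 4.79.

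For the comparison of tissues, each count was taken as a share of its tissue's sum, and ratios are shoot over root. Where a gene had a coding ORF with the same coordinates in both tissues, the longest such ORF was used. By this measure 9 of the 10 genes could be compared, all 9 were higher in shoot, and their median log2 ratio was 2.83, or 7.11-fold. The median over all 11610 genes tested was -0.33. At least a 4-fold difference was seen for 8 of the 9, where 8.76% of all genes tested passed 4-fold in that direction. With the largest ORF of each gene, which includes STN8, 9 of 10 genes passed, where 9.53% of 14659 genes did. None of the 10 genes was at least 4-fold higher in root by either measure (0 in each), where 8.28% of genes with an identical ORF and 9.89% by the largest ORF were. The gene outside the limit was FTSH1, at 3.94-fold (3.83 to 4.05). It passed 4-fold when ratios were scaled on the median gene (log2 ratio 2.31) or on nuclear genes alone (2.02).

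PSBS, the pH sensor, had the highest level and the largest ratio of the 10 genes. Its gene (AT1G44575, chromosome 1 from 16871769 to 16873193, plus strand, TAIR10) had 179829 counts in shoot over an ORF of 265 codons, and 7504 counts in root over an ORF of 261 codons. That is 679 counts per codon in shoot, rank 38 of 16191 genes, and 28.8 in root, rank 2266 of 16757. The ratio of shares per codon was 28.0-fold (27.4 to 28.7). PSBS made up 64.4% of the summed counts per codon of the 10 genes in shoot and 28.1% in root. Among nuclear subunits of photosystem II, listed as a group fixed beside the 10 genes, ratios ran from 12.0-fold for PSBR, a subunit of the oxygen-evolving side, to 34.7-fold for PSBQ1, an extrinsic subunit. The PSBS ratio thus lay within the range of these 10 subunits, whose median log2 ratio was 4.39.

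The ORF of PSBS started 12 bases further downstream in root, so that 4 codons listed in shoot were missing in root, with the same stop. For a second transcript of PSBS both tables also listed an ORF of the first exon blocks (120756 counts in shoot, 5320 in root) and one of 90 codons at the end of the gene (59073 in shoot, 2184 in root). In both tissues these counts added up to the count of the main ORF with a difference of 0. The inner ORFs cover 67 and 24 bases that lie outside the main ORF, so no net count was assigned to those bases in either tissue. The last ORF, the only one with identical coordinates in both tissues, held 32.8% of the main count in shoot (32.6 to 33.1) and 29.1% in root (28.1 to 30.1), over 31.0% of the bases of the main ORF in shoot and 31.5% in root. Over those 90 codons the shoot over root ratio was 32.1-fold (30.8 to 33.5). The 3 ORFs share their counts and are not independent values.

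**Figure D2:**
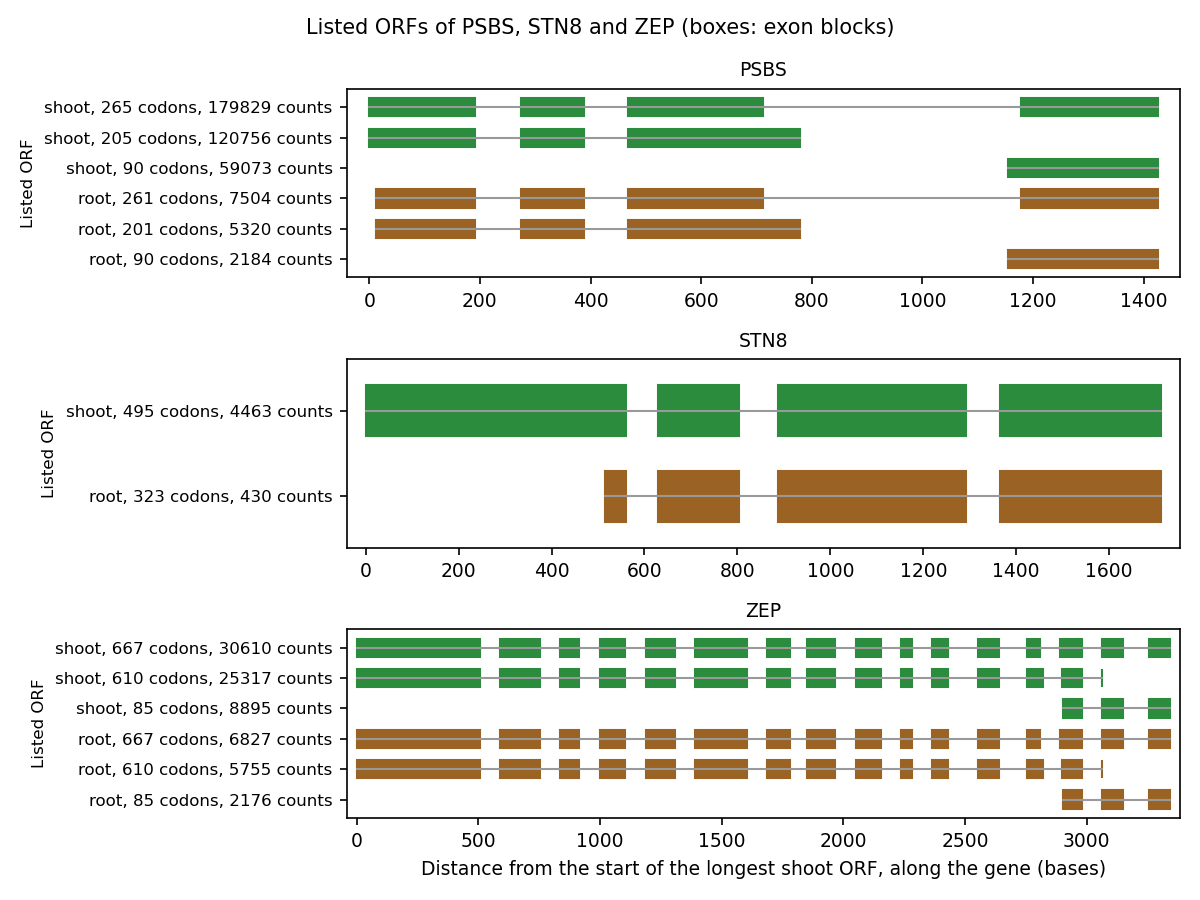
Exon blocks (boxes) of every listed ORF of PSBS, STN8 and ZEP, with distance in bases along the gene from the start of the longest shoot ORF, shoot ORFs above root ORFs, each with its codons and count. The root ORF of PSBS starts 12 bases and that of STN8 516 bases after the shoot ORF, while the 3 ORFs of ZEP are the same in both tissues.

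FTSH2 and FTSH5 followed PSBS in level in both tissues, and type A and type B genes differed little in their tissue ratios when summed. FTSH2, also known as VAR2, a type B subunit (AT2G30950, chromosome 2 from 13174693 to 13177063, plus strand), had 88202 counts in shoot and 16823 in root over 695 codons. FTSH5, also known as VAR1, a type A subunit (AT5G42270, chromosome 5 from 16902660 to 16905101, plus strand), had 66494 counts in shoot and 11100 in root over 704 codons. Loss of either is known to give variegated leaves. FTSH8, type B (AT1G06430, chromosome 1 from 1960217 to 1962524, minus strand), had 21430 counts in shoot and 5789 in root over 685 codons. FTSH1, type A (AT1G50250, chromosome 1 from 18614401 to 18616929, minus strand), had 20627 counts in shoot and 6223 in root over 716 codons. The type A genes each had 5 exon blocks and the type B genes 4, and all 4 ORFs had the same coordinates in both tissues.

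The major subunit of each type had the larger shoot over root ratio. FTSH5 was 7.11-fold higher in shoot (6.97 to 7.26) and FTSH1 3.94-fold, so that the ratio of FTSH5 was 1.81 times that of FTSH1 (1.75 to 1.87). FTSH2 was 6.23-fold higher in shoot (6.12 to 6.33) and FTSH8 4.40-fold (4.27 to 4.53), so that the ratio of FTSH2 was 1.42 times that of FTSH8 (1.37 to 1.46). Within type A, FTSH5 therefore made up 76.6% of counts per codon in shoot (76.3 to 76.9) and 64.5% in root (63.7 to 65.2). Within type B, FTSH2 made up 80.2% in shoot (80.0 to 80.5) and 74.1% in root (73.5 to 74.7). The minor subunits held larger parts of the total in root. FTSH1 and FTSH8 held 10.2% and 11.1% of the counts per codon of the 4 genes in shoot, and 15.2% and 14.8% in root.

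Type B genes held slightly more than type A genes in both tissues. They held 56.2% of the counts per codon of the 4 genes in shoot (56.0 to 56.4) and 57.2% in root (56.7 to 57.7). The share of the tissue sum was 5.97-fold higher in shoot for type A and 5.76-fold for type B. The 4 genes together had 281 counts per codon in shoot and 57.1 in root, and made up 26.7% of the summed counts per codon of the 10 genes in shoot and 55.8% in root. These parts depend on PSBS, which held 64.4% of that sum in shoot and 28.1% in root. Without PSBS the sum was 375 counts per codon in shoot and 73.6 in root, and the 4 FTSH genes held similar parts of it in both tissues. FTSH1 and FTSH5 are close paralogs, as are FTSH2 and FTSH8. How reads that match both members of a pair were assigned is not given in the sources used here, so the split within a type is less certain than the sum.

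**Figure D3:**
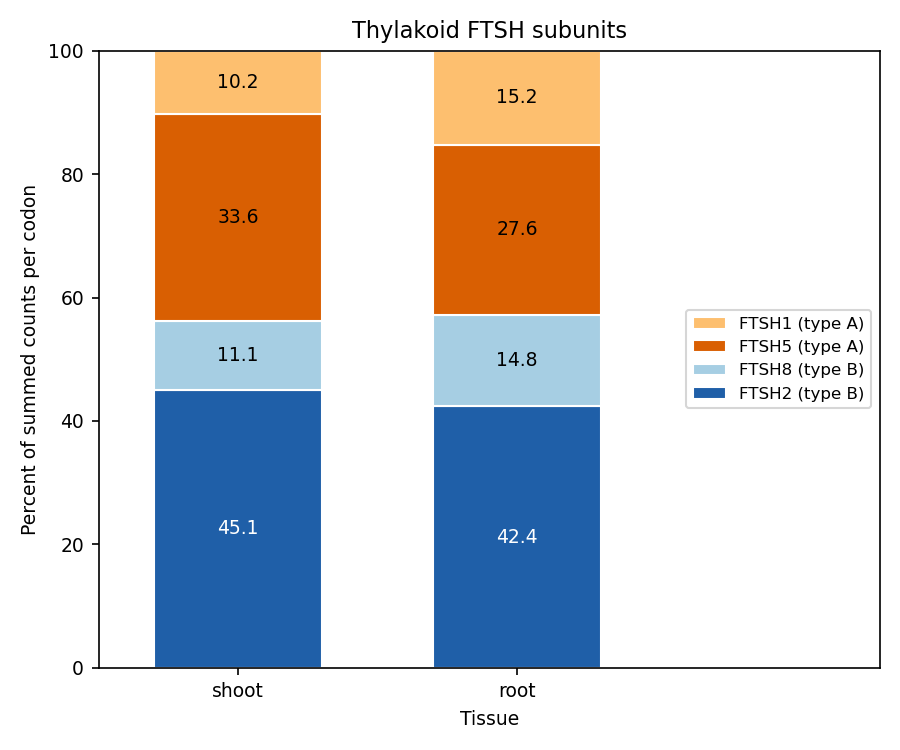
Stacked bars of the percent of the summed counts per codon of FTSH1, FTSH5, FTSH8 and FTSH2, for shoot on the left and root on the right, with type A in orange and type B in blue. The boundary between the types lies at 56.2% in shoot and 57.2% in root, while FTSH1 and FTSH8 take larger parts in root.

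DEG1, a serine protease of the thylakoid lumen (AT3G27925, chromosome 3 from 10366662 to 10368863, minus strand), had 8236 counts in shoot and 1232 in root over 439 codons in 8 exon blocks. This was 18.8 counts per codon in shoot and 2.81 in root, a ratio of 7.94-fold (7.48 to 8.43). Among the other chloroplast DEG proteases, DEG2, on the stromal side, had 17899 counts in shoot and 1645 in root, 12.9-fold higher. DEG5 and DEG8, which form a complex in the lumen, had fewer counts than DEG1. DEG8 had 2283 in shoot and 493 in root, 5.49-fold higher over an identical ORF. DEG5 had no identical ORF, with 9.94 counts per codon in shoot and 1.32 in root.

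The kinases STN7 and STN8 stood lower in level, and both were higher in shoot. STN7 (AT1G68830, chromosome 1 from 25872657 to 25875472, minus strand) had 8392 counts in shoot and 918 in root over 562 codons in 10 exon blocks. The ratio was 10.9-fold (10.1 to 11.6). STN8 (AT5G01920, chromosome 5 from 359155 to 360866, plus strand, as listed in shoot) had 4463 counts in shoot over 495 codons and 430 counts in root over 323 codons. The root ORF began at 359671, 516 bases further along the transcript, and so lacked 172 codons, or 34.7% of the shoot ORF, with the same stop. Per codon, STN8 had 9.02 counts in shoot and 1.33 in root, an 8.03-fold ratio of shares (7.28 to 8.90). Without division by codons the ratio was 12.3-fold, as the shoot ORF is longer.

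A listed start that differs between tissues was not rare. Of 14577 genes whose longest coding ORF had the same stop in both tissues, 9.97% had the shorter ORF in root and 12.0% the longer. Among the 10 genes, PSBS and STN8 were shorter in root and 0 were longer. STN8 had the second lowest root count of the 10 genes. Whether ribosomes in root used the downstream start was not tested.

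Each kinase is opposed by a phosphatase. The balance of STN7 and TAP38 differed between the tissues by no more than counting error. For STN8 and PBCP this depended on the ORF used. TAP38, which reverses the action of STN7, had 3624 counts in shoot and 446 in root. STN7 had 1.60 times the counts per codon of TAP38 in shoot (1.54 to 1.66) and 1.42 times in root (1.27 to 1.59). The shoot over root ratio of STN7 was 1.13 times that of TAP38, with an interval of 0.998 to 1.27 that includes 1. PBCP, which dephosphorylates the photosystem II core, had 1188 counts in shoot and 202 in root over an identical ORF of 221 codons. STN8 had 1.68 times its counts per codon in shoot (1.57 to 1.79) and 1.46 times in root (1.23 to 1.73). The ratio of STN8 was 1.15 times that of PBCP (0.963 to 1.38). That comparison is unmatched, as STN8 had no identical ORF and entered with its largest ORF. With the largest ORF of both genes, PBCP had 1415 counts in shoot over a longer ORF. The ratio of STN8 was then 1.30 times that of PBCP (1.09 to 1.56), an interval that leaves out 1. An interval that includes 1 does not show that kinase and phosphatase have the same tissue ratio.

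The xanthophyll cycle enzymes differed more from each other than each kinase did from its phosphatase. VDE (AT1G08550, chromosome 1 from 2707463 to 2709386, plus strand) had 2401 counts in shoot and 215 in root over 462 codons in 5 exon blocks, the lowest counts of the 10 genes in both tissues. Its level was 5.20 counts per codon in shoot and 0.465 in root, where it ranked 16074 of 16757 genes. The ratio was 13.2-fold (11.5 to 15.3). ZEP (AT5G67030, chromosome 5 from 26753748 to 26757089, minus strand) had 30610 counts in shoot and 6827 in root over 667 codons in 16 exon blocks, or 45.9 counts per codon in shoot and 10.2 in root. It was 5.32-fold higher in shoot (5.19 to 5.47). ZEP thus had 8.83 times the counts per codon of VDE in shoot (8.47 to 9.21) and 22.0 times in root (19.2 to 25.3). The shoot over root ratio of VDE was 2.49 times that of ZEP (2.16 to 2.87).

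**Figure D4:**
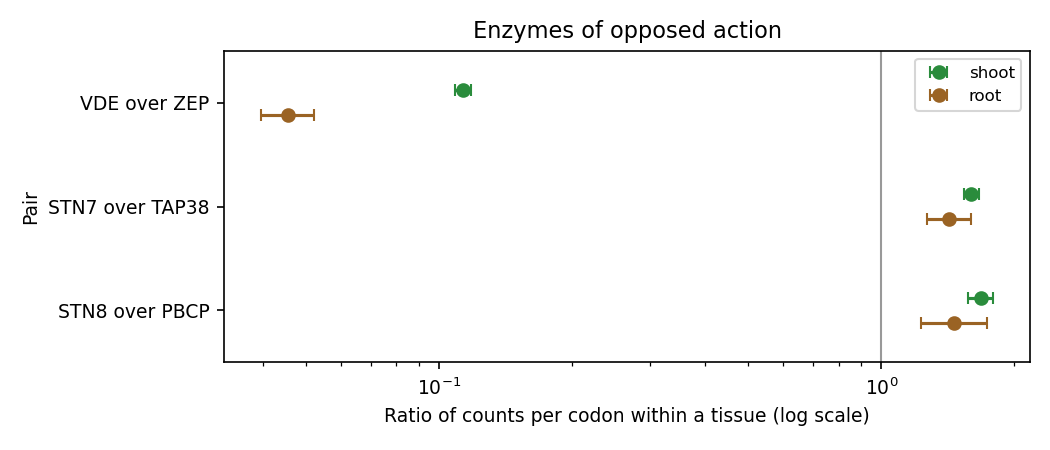
Ratio of counts per codon within each tissue for VDE over ZEP, STN7 over TAP38 and STN8 over PBCP on a log axis, shoot above root, with exact 95% counting intervals as bars and a line at equal levels. The intervals of shoot and root are apart for VDE over ZEP (0.113 in shoot, 0.0455 in root). They overlap for the kinase and phosphatase pairs, with the largest ORF of STN8 set against the identical ORF of PBCP.

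ZEP was listed with 3 ORFs, all with the same coordinates in both tissues. A second transcript, spliced differently near its end, carried an ORF of 610 codons with 25317 counts in shoot and 5755 in root. It also carried one of 85 codons at the end of the gene with 8895 counts in shoot and 2176 in root. The end of ZEP held more counts per codon than the ORF as a whole. The ORF of 85 codons had 105 counts per codon in shoot and 25.6 in root, and its count was 29.1% of that of the main ORF in shoot and 31.9% in root over 12.7% of the bases. The inner ORFs overlap by 79 bases, or 3.95% of the main ORF, and their counts exceeded the main count by 3602 in shoot and 1104 in root. That excess was 11.8% of the main count in shoot (11.4 to 12.1) and 16.2% in root (15.3 to 17.1). It is the count in the overlap, apart from 13 bases found in the second transcript alone and 9 bases in neither inner ORF. As these ORFs share nearly all of their bases with the main ORF, their counts do not show that the second transcript was translated.

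Relatives of the 4 thylakoid FTSH genes did not share one tissue pattern. Of 8 other FTSH genes, 7 were listed in both tissues and FTSH6 in neither, and their median log2 ratio was 0.04. FTSH11 and FTSH12, found in the chloroplast envelope, were 4.15-fold and 4.26-fold higher in shoot. FTSH9, a chloroplast member, was 2.58-fold higher in shoot, and its relative FTSH7 lay at a log2 ratio of 0.04. The mitochondrial members FTSH3, FTSH4 and FTSH10 lay at -0.06, -0.03 and -0.78. With scaling on the median gene, FTSH3 and FTSH4 turn to 0.27 and 0.30, and FTSH10 stays below 0 at -0.45. All 5 FTSH-like proteins that lack protease activity were at least 4-fold higher in shoot, with FTSHi5 at 4.20-fold, FTSHi1 at 4.21-fold, FTSHi2 at 4.47-fold, FTSHi4 at 5.82-fold and FTSHi3 at 6.27-fold. Their levels were lower than those of the thylakoid genes, from 5.42 to 10.5 counts per codon in shoot and from 1.53 to 2.84 in root.

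Factors known to assemble or repair photosystem II were mostly higher in shoot as well. Of 24 genes, 20 were listed in both tissues, and LPA2, PAM68, LPA19 and PSB33 in shoot only, with 1735, 3261, 1162 and 17183 counts. Over all 18273 genes, 16757 were listed in root and the rest in shoot only. Of 19 with an identical ORF, 18 passed 4-fold on the shoot side, and the median log2 ratio was 3.65. The highest of these 19 were PSB27 (28.4-fold) and CYP38 (27.1-fold), assembly factors of the thylakoid lumen, MET1 (26.0-fold) and TLP18.3 (24.5-fold), a lumen protein of the repair cycle. The lowest were HCF173, needed for translation of the D1 message, at 2.92-fold, OHP2 at 4.24-fold and VIPP1, a protein of thylakoid membrane upkeep, at 5.63-fold. D1 itself, encoded by the plastid gene psbA, had 567 counts per codon in shoot and was not listed in root. Of 5 plastid genes for core subunits, 4 were listed in shoot only, psbA among them. The other, psbB, named here after its values were seen, had 32.9 counts per codon in root and was 12.9-fold higher in shoot.

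Other photoprotection genes ranged more widely. Of 21 genes, 20 were listed in both tissues and LUT1, of lutein synthesis, in shoot only with 4455 counts. By comparison, 16757 of all 18273 genes were listed in root. Of 17 with an identical ORF, 12 passed 4-fold on the shoot side, and the median log2 ratio was 2.79. The highest of the 17 were the thylakoid protein CAS at 46.7-fold, LUT5, of lutein synthesis, at 21.1-fold, SEP1 at 13.9-fold and PGR5, of cyclic electron flow, at 12.7-fold. PGRL1B, a partner of PGR5, was 1.63-fold higher in shoot, with 2778 counts in shoot and 2018 in root. Its paralog PGRL1A, named here after its values were seen, had no identical ORF. PGRL1A had 22579 counts in shoot and 2052 in root, a ratio of shares per codon of 12.9-fold. ABA4, needed for neoxanthin synthesis, and SEP2 lay at log2 ratios of -0.04 and -0.01, which turn to 0.29 and 0.32 when scaled on the median gene. ABA4 acts after ZEP on the way to abscisic acid. It had 892 counts in shoot and 1091 in root.

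Set beside nuclear subunits of photosystem II, most of the 10 genes had smaller tissue ratios. All 10 subunits passed 4-fold in shoot, with log2 ratios from 3.58 to 5.12. With the largest ORF of each gene, 7 of the 10 photoprotection and repair genes lay below the lowest subunit. These were the 4 FTSH genes, DEG1, STN7 and ZEP. STN8, at a log2 ratio of 3.62, lay within the range of the subunits only without division by codons. Per codon it lay at 3.01, so that 8 of the 10 genes were below the lowest subunit. VDE and PSBS lay within the range by both measures. The interval of VDE (11.5-fold to 15.3-fold) reached below the lowest subunit, PSBR, at 12.0-fold, so the place of VDE was not settled within counting error. With 1 value per tissue the difference between the groups has no test, and transcript levels were not analysed here.

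**Figure D5:**
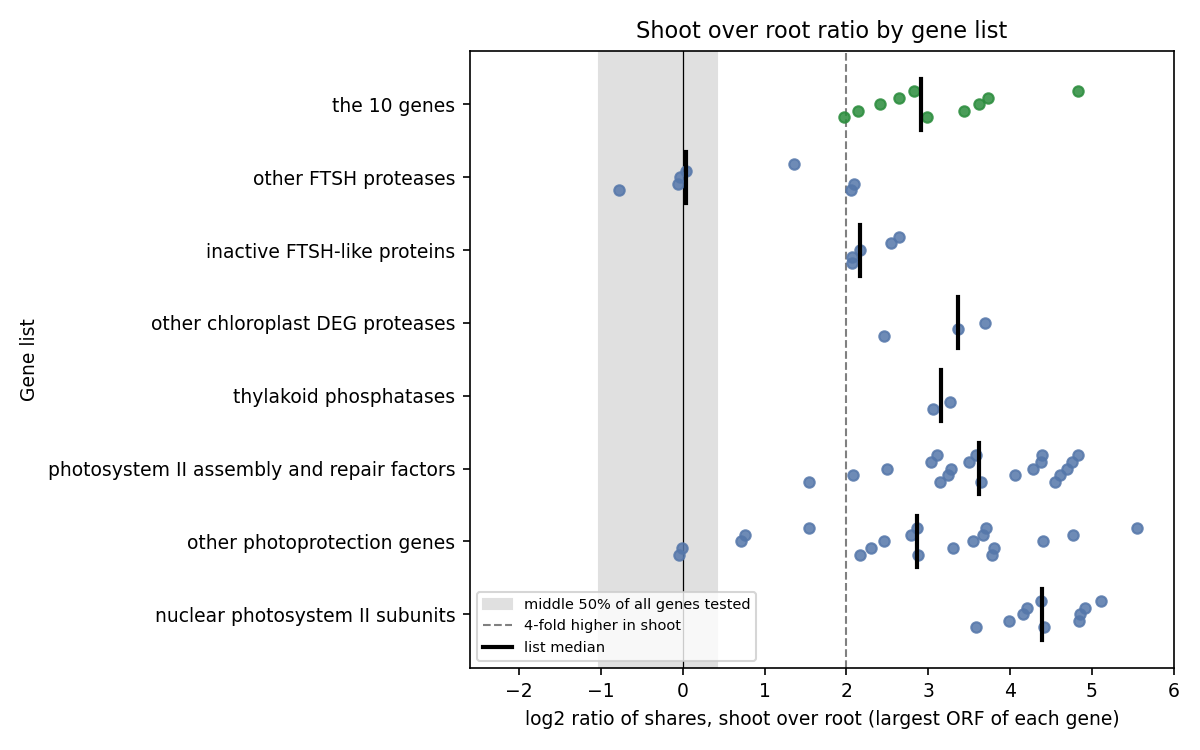
Log2 ratio of shares, shoot over root, for each gene (points) by gene list, from the largest ORF of each gene, with list medians as black bars, the middle 50% of all genes tested in grey and 4-fold as a dashed line. The 10 genes lie from 1.98 to 4.83, and the nuclear photosystem II subunits from 3.58 to 5.12.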

How the data were processed

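The submitters' processing notes name TAIR10 as the genome build, and Bowtie2 and STAR 2.5.1b among the tools. The sources used here do not say which program called the ORFs or whether samples were pooled. The authors deposited 1 count per ORF and tissue, always a whole number and never under 6, whose unit was read from the values. RNA-seq values were not analysed here.

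Codons were taken from the transcript positions in each ORF name. Outer ends are uncertain by 1 base. An ORF was called identical if its strand and every block were the same in both tissues. Shares are of the summed largest ORF counts per gene, with a pseudocount of 0.5 and at least 100 counts in the higher tissue. Intervals are 95%, exact Poisson for counts and exact binomial for shares and ratios; those of ratios of ratios are normal approximations on the log scale. Such intervals treat each count as an independent molecule, which sequencing without molecular identifiers does not ensure.

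The 10 genes and all lists were chosen with earlier results of these data known. Names of 101 of 106 list entries came from RefSeq locus tags (TAIR10.1, names only), and 5 plastid genes were named by position. RefSeq carried the symbol used here for 86 of the 101, and named no conflicting gene for the rest. The rule for genes named outside the 10 took all FTSH, DEG and phosphatase genes. From the 2 longer lists it took the 4 highest and 3 lowest ratios among genes with an identical ORF, and genes not listed in both tissues, and it took the highest and lowest photosystem II subunit and psbA. No gene of similar pattern was sought, as 2 values define no pattern.

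The alternatives were scaling on the median ratio or on nuclear genes, a pseudocount of 5, the largest ORF of each gene, no count filter, counts not divided by codons, at least 1000 counts and coding ORFs only. The largest ORF per codon was added after the data were seen. The ratio step was run on simulated Poisson counts with planted differences. That checks the calculation only, as the simulation held no spread between replicates, no reads shared by paralogs and no ORFs that differ between tissues. Computation used numpy 2.4.6, scipy 1.17.1 and pandas 2.3.3 under Python 3.11.15, with figures by matplotlib 3.10.9.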

Additional observations from a re-analysis of the deposited data

How the results depend on the processing

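No paired analysis was possible because the tables hold 1 value per tissue and none per replicate, and for the same reason no replicate could be left out. None of the ratios of the 9 genes with an identical ORF changed direction under the alternatives run, while for STN8 only the largest ORF was used, with and without division by codons. Of other genes, FTSH3, FTSH4, ABA4 and SEP2, all close to 0, changed direction with scaling on the median gene. The median log2 ratio of the 9 genes with an identical ORF, 2.83, became 2.91 over all 10 genes with the largest ORF of each, with or without division by codons. Over the 9 genes it was 2.87 with scaling on nuclear genes and 3.16 with scaling on the median gene. The number at least 4-fold higher in shoot was 8 or 9 throughout. Scaling on the median gene, whose log2 ratio was -0.33, sets that gene to 0. The genes higher in shoot then made up 62.1% of all genes past 4-fold, in place of 51.4%. Without division by codons, VDE over ZEP was 0.0784 in shoot and 0.0315 in root, STN7 over TAP38 was 2.32 in shoot and 2.06 in root, and STN8 over PBCP was 3.76 in shoot and 2.13 in root. The type B share was then 55.7% in shoot and 56.6% in root, and the FTSH5 share of type A 76.3% in shoot. STN8 over PBCP was 1.90 in shoot with the largest ORF of PBCP. With at least 1000 counts required, 10 of the 10 genes stayed listed in shoot and 7 in root, as STN7, STN8 and VDE had fewer. Depth limits VDE and STN8 in root most, with 215 and 430 counts.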

Other observations

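Further photoprotection genes, named here after their values were seen, were also higher in shoot. The early light-induced proteins bind pigments in thylakoids under light stress. ELIP1 had 39553 counts in shoot and 6438 in root, 7.29-fold higher in shoot, and ELIP2 had 28149 in shoot and 2851 in root, 11.7-fold higher. In root, ELIP1 had 33.0 counts per codon, more than the 28.8 of PSBS, while in shoot it had 203 and PSBS 679. Of the genes known for slow, PSBS-independent quenching in the antenna, the suppressor SOQ1 was 9.90-fold, the lipocalin LCNP 5.51-fold and ROQH1 6.93-fold higher in shoot.

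The hydroxylases BCH1 and BCH2, which make zeaxanthin from beta-carotene, had nearly equal levels in shoot, at 18.5 counts per codon each. In root BCH1 had 3.00 and BCH2 1.00. BCH2 had no identical ORF, with 303 codons listed in shoot and 243 in root, where it had 243 counts. The plastid terminal oxidase IM was 2.91-fold higher in shoot, with 2677 counts in shoot and 1091 in root, and APE1, known for acclimation of photosynthesis to light, 1.69-fold. All of these values are from 1 set per tissue and carry no test.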
